A study of Mus musculus with 9 samples.

Results

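The transcripts of 8 dual-specificity MAPK phosphatases, Dusp1, Dusp2, Dusp4, Dusp5, Dusp6, Dusp7, Dusp10 and Dusp16, were examined in 3 clones of unstimulated CD8 T cells. They were taken by gene symbol from the 24060 genes of the expression table, which lists 24 genes under a Dusp name. The rule that picks them uses the symbols alone, though they were chosen with earlier results of these data known. All 8 reached more than 1 TPM in at least 1 sample and were among the 12115 genes tested. TPM (a gene's transcripts as parts of a fixed total) corrects the reads of a gene for gene length and brings all samples to a shared total. Levels compare between genes and between samples only as shares of that total, not as absolute amounts.

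The clones came from transnuclear mice, which are made by somatic cell nuclear transfer from a T cell, so that the T cells of a line carry the rearranged T-cell receptor of that donor cell and each line represents 1 clone. The receptors of Rop7-I, of Rop7-II and of Rop7-III all recognise the Toxoplasma Rop7 epitope on the class I molecule H-2Ld and differ in their affinity for it and in self-reactivity, and the comparison asked how the resting transcriptomes of the clones differ. The lines had been backcrossed over several generations to a BALB/c background. The mice were homozygous for the transferred receptor. No treatment of them is given, and their ages were not given in the sources used here. Splenocytes of all 3 lines were kept in culture overnight with 10 ng/ml IL-2 and no antigen, after which cells positive for CD3, CD8 and the H-2Ld-Rop7 tetramer were collected by sorting. Each clone has 3 biological replicates, which gives 9 samples. Nothing in the labels says that the replicates came from separate animals, so p-values measure the spread between these samples.

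MAP kinases are switched on by phosphorylation of a threonine and a tyrosine in their activation loop, and the dual-specificity MAPK phosphatases remove both phosphates. Dusp1, Dusp2, Dusp4 and Dusp5 encode nuclear enzymes that are induced by the signals they then limit, Dusp6 and Dusp7 encode cytoplasmic enzymes that prefer ERK, and Dusp10 and Dusp16 encode enzymes that act mainly on the stress kinases JNK and p38. In T cells ERK, JNK and p38 all lie downstream of the T-cell receptor, and Dusp2 was first described as a phosphatase of activated T cells.

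Between the clones the phosphatases differed in 3 ways. Dusp4 was 3.69 times as high in Rop7-III as in Rop7-I and 6.50 times as high as in Rop7-II T cells, at a low level. With 1 library left out, the second ratio ran from 5.28 (without Rop7-II replicate 3) to 10.1 (without Rop7-II replicate 1). Dusp2 and Dusp7 were highest in Rop7-II T cells, with mean TPM 22.2% to 30.7% lower in the other clones, and Dusp10 was higher in Rop7-I than in Rop7-III T cells. In limma's F test across the clones 4 of the 8 had a Benjamini-Hochberg adjusted p under 0.01, against 14.1% of all tested genes. These 4 were Dusp2, Dusp4, Dusp7 and Dusp10, and an adjusted p under 0.01 is called passing throughout. The 3 clone pairs share samples, so their results are given side by side and are not independent of each other.

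The stretches just upstream of a transcription start are printed for Dusp2 and Dusp10, which differed between clones, and for Dusp1 and Dusp5, which hold motifs that are rare among promoters. RefSeq promoter windows on GRCm38, of 250 bases before and 50 after the start, matched 7 of the 8 genes, all except Dusp4. Each window is that of 1 annotated start, and those of Dusp7 and Dusp16 belong to starts inside the span given for the gene. The 250 bases before the start are shown 5′ to 3′ along the strand of the gene, at chr17:26508473-26508722 on the minus strand for Dusp1 and on the plus strand at chr2:127335909-127336158 for Dusp2, chr19:53528895-53529144 for Dusp5 and chr1:184034131-184034380 for Dusp10. Capitals mark matches on either strand to the cAMP response element TGACGTCA or its core TGACG, to the AP-1 site TGANTCA, to the CArG box that serum response factor binds, and to the GC box GGGCGG.
Dusp1: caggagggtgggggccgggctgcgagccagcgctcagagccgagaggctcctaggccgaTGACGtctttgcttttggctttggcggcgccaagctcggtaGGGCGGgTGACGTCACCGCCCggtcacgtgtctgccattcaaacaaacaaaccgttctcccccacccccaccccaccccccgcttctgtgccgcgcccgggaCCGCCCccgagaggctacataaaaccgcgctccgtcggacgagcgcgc
Dusp2: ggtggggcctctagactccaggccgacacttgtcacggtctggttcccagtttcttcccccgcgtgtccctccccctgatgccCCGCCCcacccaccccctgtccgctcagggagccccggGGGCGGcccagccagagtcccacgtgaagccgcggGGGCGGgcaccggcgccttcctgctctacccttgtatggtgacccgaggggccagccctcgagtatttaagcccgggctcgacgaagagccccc
Dusp5: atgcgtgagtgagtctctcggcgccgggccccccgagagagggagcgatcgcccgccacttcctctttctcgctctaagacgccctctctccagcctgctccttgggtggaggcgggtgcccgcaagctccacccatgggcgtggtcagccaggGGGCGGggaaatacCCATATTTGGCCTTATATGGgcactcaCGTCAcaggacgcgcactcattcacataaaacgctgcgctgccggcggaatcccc
Dusp10: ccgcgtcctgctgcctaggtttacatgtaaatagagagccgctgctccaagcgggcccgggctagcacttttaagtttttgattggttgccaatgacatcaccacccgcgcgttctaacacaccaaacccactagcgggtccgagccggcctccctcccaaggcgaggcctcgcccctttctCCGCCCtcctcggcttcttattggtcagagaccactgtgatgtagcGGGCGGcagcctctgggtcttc

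The Dusp5 window held 2 CArG boxes that lay end to end, beginning 82 and 72 bases before the start, and 1.63% of the 32851 windows of this length held any. Dusp1 alone among the 7 had a full cAMP response element, 143 bases before the start, which 1.79% of all windows had. That element contains its core on both strands, so it accounts for 2 of the 3 core matches of Dusp1. A core was also found once each in Dusp2, at 5 bases after the start, in Dusp5 and in Dusp16, and in 20.8% of all windows. GC boxes numbered 3 in Dusp1, 3 in Dusp2, 1 in Dusp5, 1 in Dusp7, 3 in Dusp10 and 5 in Dusp16, and 35.7% of all windows had at least 1. The EGR site GCGNGGGCG was matched once in Dusp2 and once in Dusp16, against 5.55% of windows, and each match overlapped a GC box. The E-box CACGTG was matched once in Dusp1 and once in Dusp2, against 7.15% of windows. The AP-1 site and the TATA box TATAAA had 0 matches in the 7 windows, and 7.81% and 13.6% of all windows had one. Dusp6 had no match to any of these letters within its window. All 7 windows were rich in CG dinucleotides, with 19 in Dusp6 to 41 in Dusp7 where the median window had 7. These matches are letters in a window, and whether a factor bound them was not measured.

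The 8 genes differed widely in level, from 1.11 TPM for Dusp16 to 143 TPM for Dusp2. Averaged over the 9 samples, Dusp2 stood at 143 TPM and Dusp10 at 136 TPM, above 89.8% and 89.2% of the tested genes. Dusp7 followed at 36.1 TPM and Dusp1 at 21.2 TPM. Dusp6 at 7.56, Dusp5 at 4.51, Dusp4 at 2.06 and Dusp16 at 1.11 TPM were weakly expressed, and Dusp16 exceeded only 7.43% of the tested genes. Thus a nuclear enzyme and an enzyme for the stress kinases were the abundant transcripts in every clone.

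**Figure D1:**
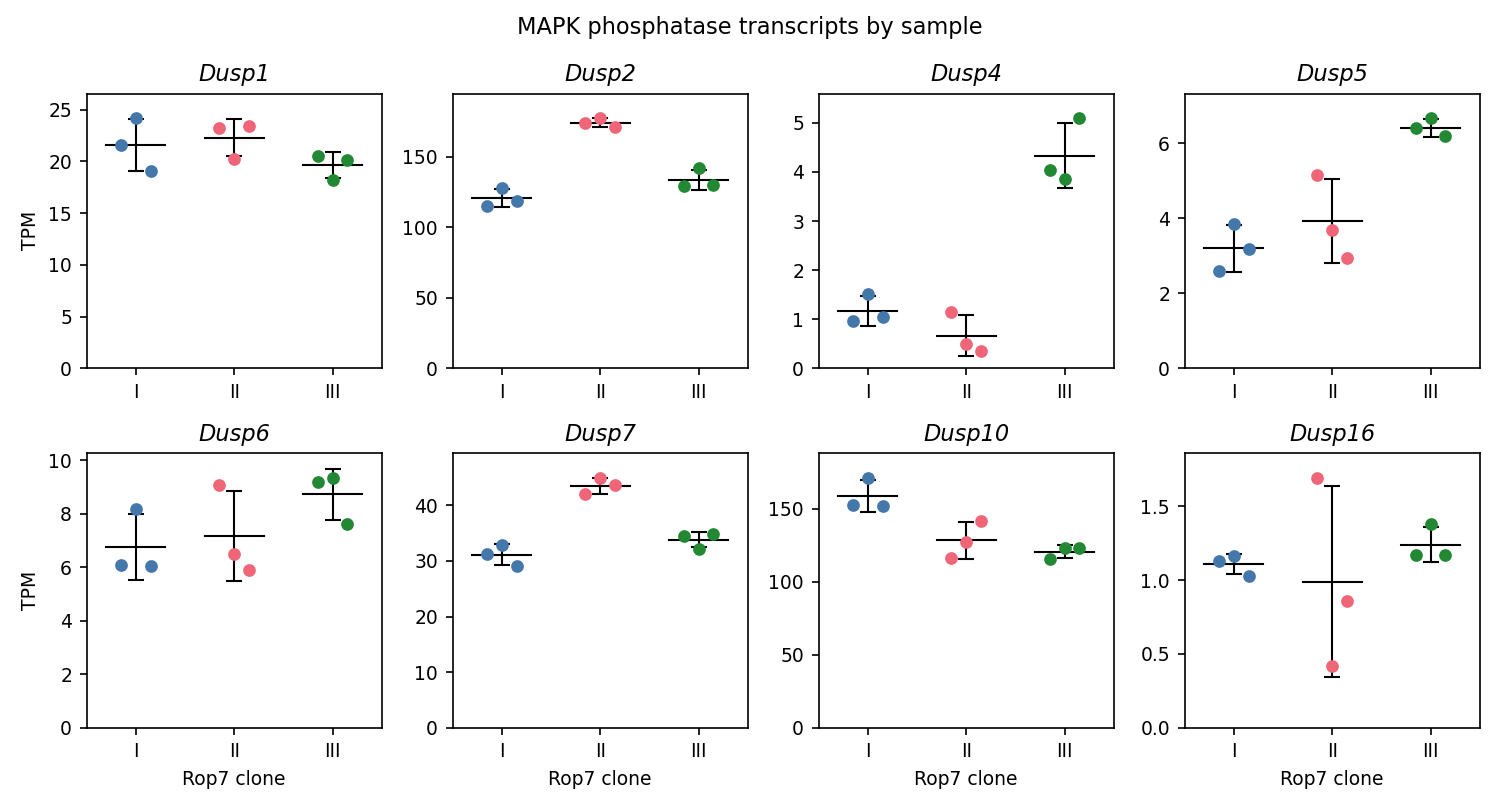
TPM of each of the 8 MAPK phosphatases by sample and clone, 1 panel per gene with a linear axis from 0, where points are samples and the bar and whiskers are the mean and SD of 3. Dusp4 and Dusp5 lie highest in Rop7-III, Dusp2 and Dusp7 highest in Rop7-II and Dusp10 highest in Rop7-I, without overlap in each case. Dusp5 did not pass in any pair. The share of all tested genes that lack overlap in this way was not counted, so no excess can be read.

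Dusp4, a nuclear phosphatase of ERK, JNK and p38 on chromosome 8 from 34807610 to 34819894 of GRCm38, had the largest difference between clones among the 8. It stood at 4.05, 3.85 and 5.09 TPM in Rop7-III, at 0.96, 1.52 and 1.04 TPM in Rop7-I and at 1.14, 0.50 and 0.36 TPM in Rop7-II T cells. Every Rop7-III sample lay above all 6 others, and Rop7-I and Rop7-II overlapped. The means were 4.33 ± 0.666, 1.17 ± 0.303 and 0.667 ± 0.416 TPM (SD, n = 3 each), so that the mean in Rop7-III was 6.50 times that in Rop7-II and 3.69 times that in Rop7-I T cells. The first ratio was 10.1 without Rop7-II replicate 1, the highest sample of its clone, and 5.28 without Rop7-II replicate 3, the lowest. On the log2(TPM + 1) scale, which understates the change of weakly expressed genes, Rop7-III exceeded Rop7-II by 1.70 (standard error 0.20, 95% interval 1.25 to 2.15, limma adjusted p = 3.98e-04) and Rop7-I by 1.30 (standard error 0.20, interval 0.85 to 1.74, adjusted p = 0.00351). Rop7-I and Rop7-II differed by 0.40 (interval -0.05 to 0.85, adjusted p = 0.200). In a sorted bulk sample, a higher level in each cell and more cells that express the gene cannot be told apart.

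The difference of Dusp4 from Rop7-II passed in each of the 20 alternative analyses in which it could be tested, with log2 differences of 1.57 to 2.65. That from Rop7-I kept its direction in all 20 but missed the limit in 7, 5 of which left out 1 library. Leaving out Rop7-I replicate 1 gave 1.23 (adjusted p = 0.0201) and leaving out Rop7-I replicate 3 gave 1.25 (0.0157). Leaving out Rop7-III replicates 1, 2 and 3 in turn gave 1.33 (0.0156), 1.36 (0.0150) and 1.196 (0.0196). Among the markers of other cells, 1 of 4 for CD4 T cells passed in the same direction. This was Cd40lg, the ligand of CD40, chosen here after its values were seen, at 3.20 TPM in Rop7-III against 0.347 TPM in Rop7-II, and 0.0733 TPM was its mean in Rop7-I. Means of the other 3 were below those of Rop7-II in this clone and did not pass, with Cd4 at 0.417 against 2.84, Zbtb7b at 0.663 against 2.63 and Foxp3 at 0.830 against 2.53 TPM, and the median log2 difference of the 4 was -0.74. The summed level of these 4 markers was 4.81 to 5.37 TPM in Rop7-III, within the 2.79 to 19.14 TPM of Rop7-II and above the 2.39 to 4.32 TPM of Rop7-I samples. Its part in the Dusp4 difference was not tested.

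Dusp5, an ERK-specific nuclear phosphatase on chromosome 19 from 53529145 to 53541809, stood highest in the same clone. Its values were 6.40, 6.66 and 6.18 TPM in Rop7-III, 2.59, 3.84 and 3.18 TPM in Rop7-I and 5.14, 3.69 and 2.95 TPM in Rop7-II T cells. As with Dusp4, no Rop7-III sample fell within the range of the remaining 6, and the other clones overlapped. The means were 6.41 ± 0.240, 3.20 ± 0.625 and 3.93 ± 1.11 TPM (SD, n = 3 each). Rop7-III exceeded Rop7-I by 0.83 on the log2(TPM + 1) scale (interval 0.45 to 1.21) and Rop7-II by 0.61 (interval 0.24 to 0.99), and with adjusted p of 0.0129 and 0.0266 in limma neither passed. The first passed in 6 of 21 alternatives and the second in 2 of 21.

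Among the Rop7-II samples of Dusp5 replicate 1 was the highest, and this library stood apart in the markers of other cells. In that library all 10 B cell markers and all 9 listed myeloid markers exceeded their level in every one of the 8 other samples. Its B cell markers summed to 781.59 TPM, against 74.96 and 78.77 TPM in the other Rop7-II samples, 139.61 to 354.62 TPM in Rop7-I and 58.19 to 116.42 TPM in Rop7-III. Its myeloid markers summed to 620.23 TPM against 35.99 to 235.84 TPM elsewhere. The same library was the highest of its clone for Dusp4, Dusp5, Dusp6 and Dusp16, and the share of all tested genes highest in it was not counted. Without it, the Dusp5 difference was 0.78 from Rop7-II (adjusted p = 0.00570) and 0.83 from Rop7-I (adjusted p = 0.00369), and both passed. The difference from Rop7-I holds no Rop7-II sample, so only its p-value could change. A further fit took the mean log2(TPM + 1) of the B cell markers as a covariate. The Dusp5 difference was then 0.77 (adjusted p = 0.00182) and 1.07 (adjusted p = 0.00126), and both passed. With the myeloid markers taken the same way it was 0.84 (adjusted p = 0.0477) and 0.91 (adjusted p = 0.0106), and neither did. The difference from Rop7-I also passed without Rop7-II replicate 3 (0.83, adjusted p = 0.00951). For Dusp4 the difference from Rop7-II was 1.89 without Rop7-II replicate 1 (adjusted p = 1.53e-04). The B cell marker sums of Rop7-I and Rop7-III did not overlap, so in that pair marker level and clone cannot be told apart. The part of other cells in these differences was not tested.

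**Figure D2:**
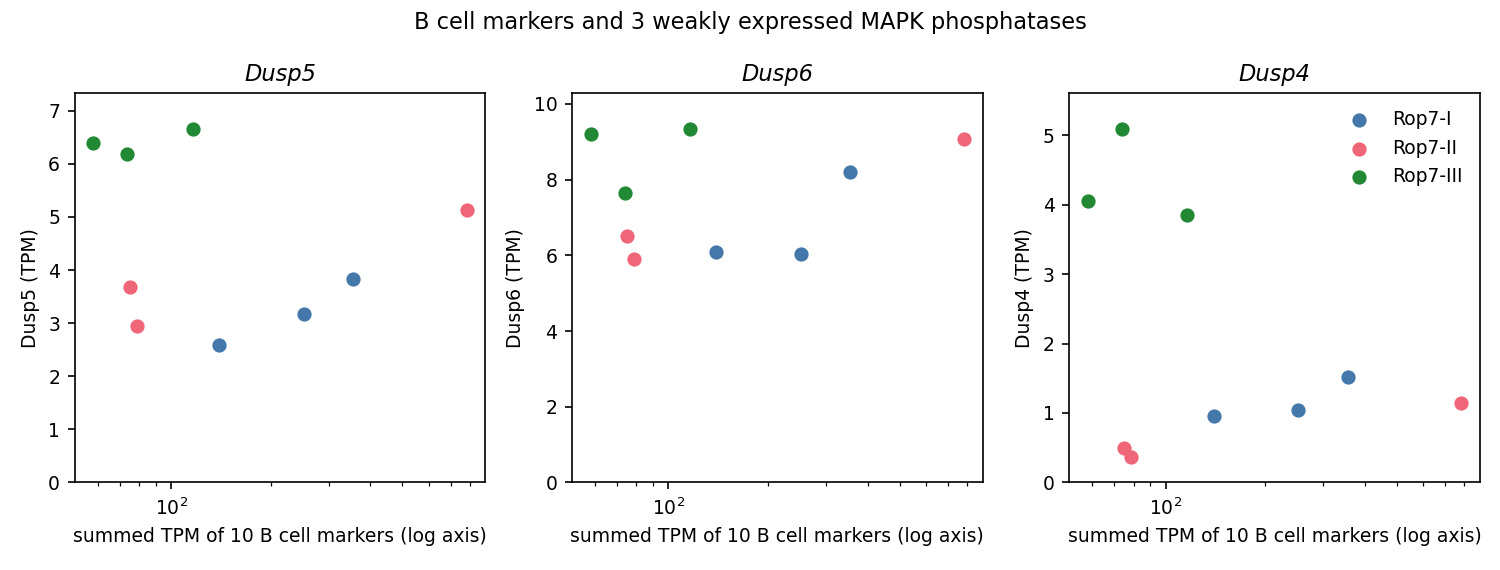
TPM of Dusp5, Dusp6 and Dusp4 in each of the 9 samples against the summed TPM of 10 B cell markers on a log axis, coloured by clone. Rop7-II replicate 1, at 781.59 TPM of B cell markers, has the highest value of its clone in all 3 panels, and for Dusp5 and Dusp4 the Rop7-III samples still lie above it.

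Dusp2, a nuclear phosphatase on chromosome 2 from 127336159 to 127338377, separated all 3 clones. It stood at 173.97, 176.95 and 170.82 TPM in Rop7-II, at 128.87, 141.71 and 130.12 TPM in Rop7-III and at 115.12, 127.80 and 118.82 TPM in Rop7-I T cells. Rop7-II lay far above the other clones, and Rop7-III lay just above Rop7-I. The means were 174 ± 3.07, 134 ± 7.08 and 121 ± 6.52 TPM (SD, n = 3 each). Dusp2 fell by 0.38 on the log2(TPM + 1) scale from Rop7-II to Rop7-III (standard error 0.05, limma adjusted p = 6.08e-04) and by 0.53 from Rop7-II to Rop7-I (standard error 0.05, adjusted p = 1.54e-04). In TPM these were differences of -23.2% and -30.7%. Both passed in all 21 alternatives. Rop7-III and Rop7-I differed by 0.15 (interval 0.04 to 0.25, adjusted p = 0.0763), which did not pass in any.

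Dusp1, the immediate early phosphatase of p38 and JNK on chromosome 17 from 26505591 to 26508472, ranged from 18.21 to 24.14 TPM over the 9 samples. The clones overlapped, with a mean of 21.6 ± 2.53 TPM for Rop7-I, 22.3 ± 1.78 TPM for Rop7-II and 19.6 ± 1.25 TPM for Rop7-III (SD, n = 3 each). No pair passed, and the widest difference, of Rop7-III from Rop7-II, was -0.17 with an interval of -0.38 to 0.03. Of the 4 nuclear enzymes, therefore, Dusp4 was highest in Rop7-III, Dusp2 was highest in Rop7-II, Dusp5 did not pass in the fit of all 9 samples and Dusp1 did not pass.

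Dusp7, the cytoplasmic ERK phosphatase on chromosome 9 from 106368560 to 106375724, followed Dusp2 in being highest in Rop7-II T cells. It stood at 41.94, 44.89 and 43.65 TPM in Rop7-II, against 31.27, 32.92 and 29.11 TPM in Rop7-I and 34.54, 32.21 and 34.77 TPM in Rop7-III T cells. All 3 Rop7-II samples lay above the other 6, and Rop7-I and Rop7-III overlapped. Means were 43.5 ± 1.48, 31.1 ± 1.91 and 33.8 ± 1.42 TPM (SD, n = 3 each). Dusp7 was lower than in Rop7-II by 28.5% in Rop7-I (log2 difference -0.47, standard error 0.06, adjusted p = 6.14e-04) and by 22.2% in Rop7-III (log2 difference -0.35, standard error 0.06, adjusted p = 0.00191). The first passed in all 21 alternatives, and the second missed the limit in 1, with the myeloid markers as a covariate (-0.40, adjusted p = 0.0175). Rop7-III and Rop7-I differed by 0.12 (interval -0.01 to 0.24, adjusted p = 0.196).

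Genes around Dusp7 also differed between Rop7-II and the other clones. Of the 25 tested genes within 1 Mb, 9 had a lower and 1 a higher level in Rop7-III compared with Rop7-II (40% against 12.3% of all tested genes), and 8 were lower and 1 was higher in Rop7-I than in Rop7-II (36% against 7.53%). Between Rop7-III and Rop7-I 0 of the 25 passed. The nearest of those lower in both were Abhd14a at 64.3 kb (-2.12 in Rop7-III and -2.26 in Rop7-I), Abhd14b at 72.0 kb (-3.93 and -3.83) and Pcbp4 at 77.3 kb (-1.55 and -1.89). Abhd14a and Abhd14b overlap, so the reads of the pair may be shared between them. Mapkapk3, a kinase that MAP kinases activate, lay 879 kb away and was lower by 0.84 in Rop7-III and 0.92 in Rop7-I on the log2(TPM + 1) scale. The gene that was higher was Col6a4, a collagen chain, at 272 kb (2.10 and 1.82). These neighbours were named after their values were seen. Of the other genes that passed, Dusp2 had 23 tested neighbours within 1 Mb, of which 2 passed between Rop7-III and Rop7-II and 1 in each other pair, all higher in the first clone of the pair. Dusp4 had 7, of which 1 passed, between Rop7-III and Rop7-II, and Dusp10 had 6, of which 0 passed. None of the 8 phosphatases overlaps another gene of the table, which matters because the libraries were not strand-specific. In RefSeq, however, Dusp6 overlaps Gm34921, and Dusp16 overlaps Gm36328 and 1700055D16Rik, which the table lacks. Whether reads from these were counted for Dusp6 or Dusp16 is unknown.

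Dusp6, the cytoplasmic ERK phosphatase that ERK signalling itself induces, is on chromosome 10 from 99263231 to 99267489. It stood at 9.21, 9.34 and 7.64 TPM in Rop7-III, 6.08, 8.19 and 6.04 TPM in Rop7-I and 9.08, 6.51 and 5.91 TPM in Rop7-II T cells. The clones overlapped, and the highest Rop7-II sample was again replicate 1. Rop7-III differed from Rop7-I by 0.33 (interval -0.03 to 0.69, adjusted p = 0.216) and from Rop7-II by 0.27 (interval -0.09 to 0.63, adjusted p = 0.255). With the B cell markers as a covariate these were 0.55 (adjusted p = 0.0262) and 0.41 (adjusted p = 0.0333), still over the limit.

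Dusp10, a phosphatase of JNK and p38 on chromosome 1 from 184034381 to 184075636, was highest in Rop7-I T cells. It stood there at 152.77, 170.90 and 151.82 TPM, against 116.48, 126.91 and 141.38 TPM in Rop7-II and 115.27, 123.07 and 122.75 TPM in Rop7-III T cells. Rop7-I lay above both other clones without overlap, and these overlapped each other. Means were 158 ± 10.8, 128 ± 12.5 and 120 ± 4.41 TPM (SD, n = 3 each). Rop7-III was lower than Rop7-I by 24.1%, a log2 difference of -0.39 (standard error 0.07, interval -0.55 to -0.23, limma adjusted p = 0.00783). Rop7-I exceeded Rop7-II by 0.31 (interval 0.15 to 0.47), which with an adjusted p of 0.0180 did not pass, and Rop7-III differed from Rop7-II by -0.09 (interval -0.25 to 0.07, adjusted p = 0.402).

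The Dusp10 difference between Rop7-III and Rop7-I lay near the limit. It kept its direction in all 21 alternatives, with log2 differences of -0.44 to -0.34, and missed the limit in 11. Leaving out Rop7-I replicates 1, 2 and 3 in turn gave -0.42 (adjusted p = 0.0271), -0.34 (0.0313) and -0.42 (0.0186), and leaving out Rop7-II replicate 2 gave -0.39 (0.0117). Without Rop7-III replicates 1, 2 and 3 it was -0.36 (0.0364), -0.41 (0.0283) and -0.41 (0.0278). The difference between Rop7-I and Rop7-II passed without Rop7-II replicate 3 (0.38, adjusted p = 0.00679). Rop7-I replicate 2 was the highest of its clone in all 8 phosphatases, and the share of all tested genes highest there was not counted. In this library 4 of 5 erythroid markers were higher than in any other sample, with a sum of 1355.48 TPM against 14.23 to 273.67 TPM. The haemoglobin gene Hbb-bs was listed at 0 in every sample. The part of erythroid transcripts in the result was not tested beyond the value without that library.

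Dusp16, a JNK phosphatase on chromosome 6 from 134715468 to 134807063, was the weakest of the 8. It ranged from 0.42 to 1.69 TPM, both in Rop7-II, with a mean of 1.11 ± 0.0681 TPM for Rop7-I, 0.990 ± 0.645 TPM for Rop7-II and 1.24 ± 0.121 TPM for Rop7-III (SD, n = 3 each). No pair passed, and the interval of the difference of Rop7-III from Rop7-II ran from -0.27 to 0.71, so that a change of some size in either direction was not detectable at this level.

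Comparing Rop7-III with Rop7-II T cells, 3 of the 8 phosphatases passed, against 12.3% of all tested genes. Dusp4 was higher (6.39% of all genes were), Dusp2 and Dusp7 were lower (5.89% were), and of those that passed Dusp4 alone differed at least 2-fold on the log2(TPM + 1) scale (1.7% did). In Rop7-III against Rop7-I 2 passed, against 4.85%, with Dusp4 higher (2.58%) and Dusp10 lower (2.28%), and Dusp4 again the only one of these past 2-fold on that scale (1.06%). Dusp5, with a ratio of mean TPM of 2.00, did not pass. In Rop7-I against Rop7-II 2 passed, against 7.53%, with 0 higher (3.67%) and Dusp2 and Dusp7 lower (3.85%), and 0 differed at least 2-fold (0.949%). The median log2 difference over the 8 was 0.07, 0.13 and -0.06 in these pairs, beside -0.02, -0.00 and -0.01 over all tested genes. The family did not move in 1 direction in any pair.

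**Figure D3:**
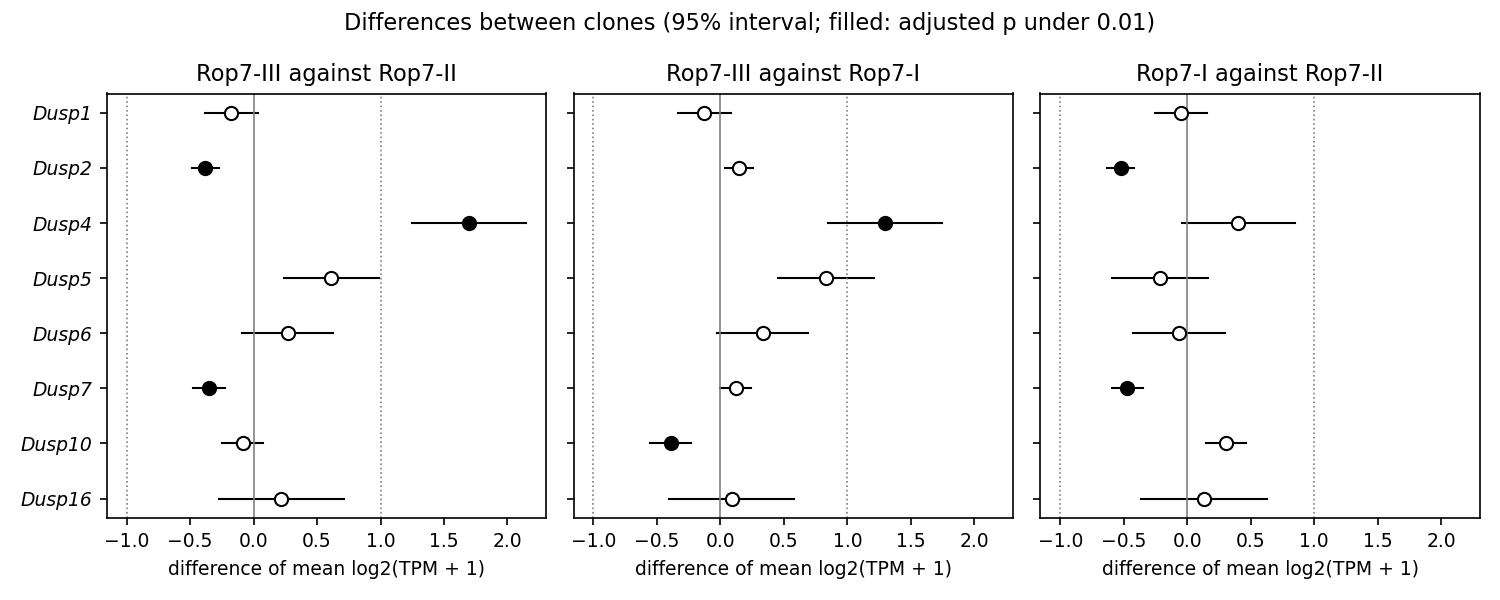
Difference of mean log2(TPM + 1) between clones for each phosphatase in the 3 pairs, with 95% intervals from limma, filled where the adjusted p was under 0.01, and dotted lines at a 2-fold difference. Dusp4 is filled to the right in both Rop7-III pairs, Dusp2 and Dusp7 to the left in both pairs with Rop7-II, and Dusp10 to the left in Rop7-III against Rop7-I.

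The summed level of the 8 transcripts was 380.7 ± 8.33 TPM for Rop7-II, 344 ± 22.9 TPM for Rop7-I and 328 ± 8.19 TPM for Rop7-III (SD, n = 3 each), and all 3 Rop7-II samples were above the rest. Dusp2 and Dusp10 together made up 76.3% to 82.0% of it in every sample. Their ratio differed by clone without overlap, with Dusp2 at 0.748 to 0.783 times the level of Dusp10 in Rop7-I, 1.06 to 1.15 times in Rop7-III and 1.21 to 1.49 times in Rop7-II samples. Dusp10 was thus the leading transcript in Rop7-I and Dusp2 in the other clones. Dusp4 held 1.14% to 1.55% of the sum in Rop7-III, 0.290% to 0.410% in Rop7-I and 0.0925% to 0.306% in Rop7-II samples.

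**Figure D4:**
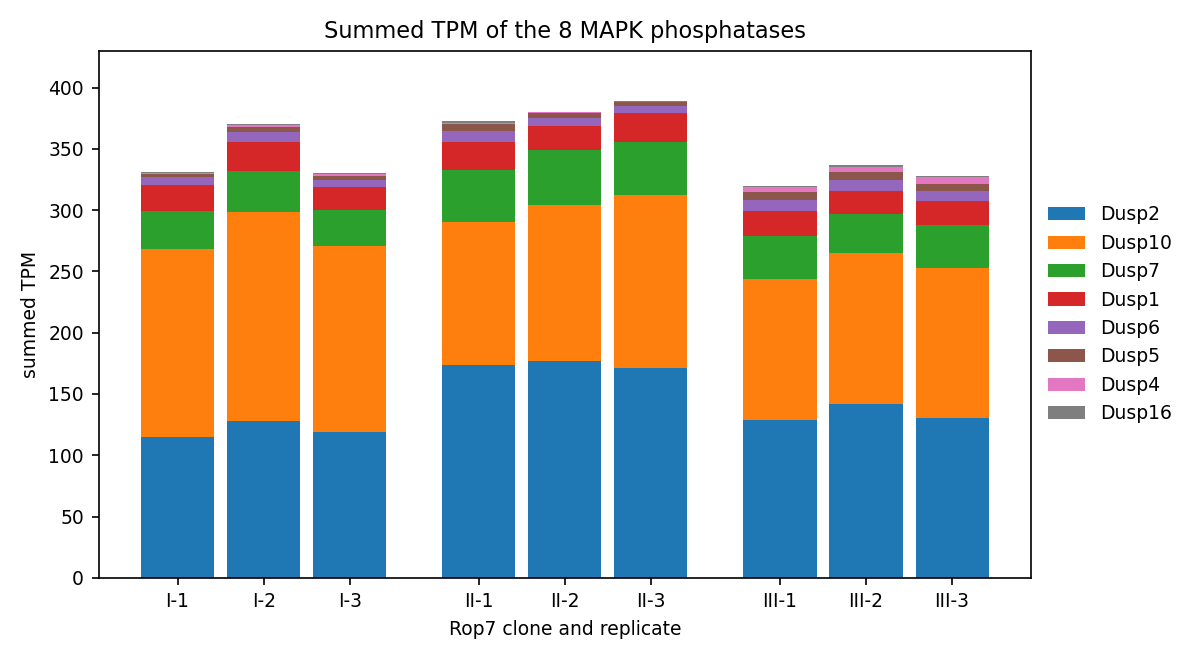
Summed TPM of the 8 phosphatases in each sample as stacked bars from 0, grouped by clone. Rop7-II samples reach 372.7 to 389.3 TPM with Dusp2 as the largest block, and in Rop7-I samples Dusp10 is the largest block.

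Other genes of the pathway were taken from 5 lists that were also written with earlier results of these data known. Of the 32 tested, 1 passed between Rop7-III and Rop7-II (3.12% against 12.3% of all tested genes), 0 between Rop7-III and Rop7-I (against 4.85%) and 2 between Rop7-I and Rop7-II (6.25% against 7.53%). At an unadjusted p under 0.05 in limma these counts were 13, 11 and 10. The share of all tested genes under that limit was not counted, so no excess or lack can be read from them. Of the remaining family members, Dusp8 and Dusp9 had at most 0.09 and 0.16 TPM and were not tested, and Styxl1, a relative without catalytic activity, was tested and did not pass. Of 14 atypical dual-specificity phosphatases, small enzymes that lack the kinase-binding domain, 7 were tested and 0 passed in any pair. At an unadjusted p under 0.05 in limma the counts were 2, 0 and 2 in the same order of pairs, again without that share. Dusp11, an RNA phosphatase, was the most abundant of the 14, at 159.91 to 186.74 TPM. Among other phosphatases that act on MAP kinases, 4 of 6 were tested and Ppm1b alone passed, at 169 TPM in Rop7-III against 152 TPM in Rop7-II (log2 difference 0.15, adjusted p = 0.00520).

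Of 11 MAP kinases 9 were tested, and Mapk6, which encodes the atypical kinase ERK3, was higher in Rop7-I than in Rop7-II (40.8 against 33.5 TPM, log2 difference 0.28, adjusted p = 0.00723). Of 18 ERK feedback inhibitors and ERK-induced genes 11 were tested, and only Myc passed, higher in Rop7-I than in Rop7-II (64.3 against 46.1 TPM, log2 difference 0.48, adjusted p = 0.00465). Ier3, an immediate early gene named here after its values were seen, did not pass. It stood at 8.45 to 16.05 TPM in Rop7-II, above all samples of Rop7-I (5.19 to 6.04 TPM) and Rop7-III (4.67 to 7.29 TPM), with a log2 difference of Rop7-III from Rop7-II of -0.93 (interval -1.40 to -0.45, adjusted p = 0.0119) and of Rop7-I from Rop7-II of -0.90 (adjusted p = 0.0185). Across these 5 lists the median difference of Rop7-III from Rop7-II lay between -0.34, for the list of which Styxl1 alone was tested, and 0.19, for the ERK-induced list.

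**Figure D5:**
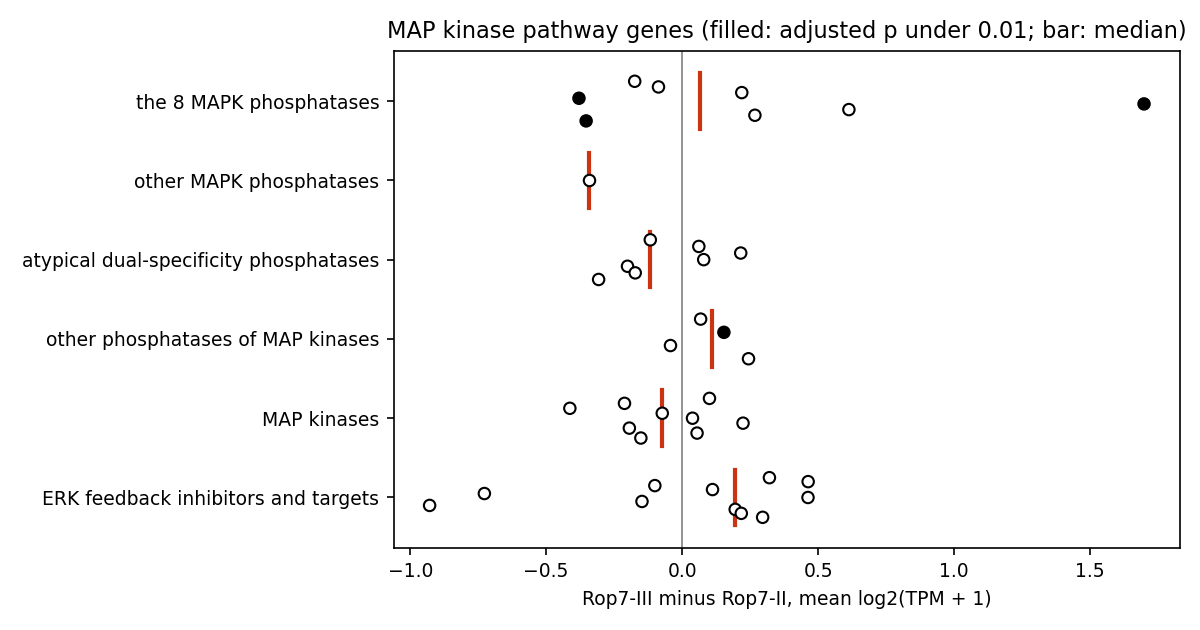
Difference of mean log2(TPM + 1), Rop7-III minus Rop7-II, for each tested gene of the 8 phosphatases and the 5 other lists, with the median of a list as a red line and genes with an adjusted p under 0.01 filled. Dusp4 at 1.70 is the point farthest to the right, and in the other lists Ppm1b is the filled point.

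The genes with the profile most like that of Dusp4 were taken as those with the smallest root mean square difference of log2(TPM + 1), each gene centred on its own mean, over the 9 samples. They were Ltk (0.15), Ptgfrn (0.16), Rpgrip1 (0.17), Ybx3 (0.20) and Gch1 (0.21), where the profile of Dusp4 itself had a root mean square of 0.75. Each was lowest in Rop7-II and highest in Rop7-III, an order that the way they were picked favours. Ltk, a receptor tyrosine kinase, stood at 4.24, 5.31 and 13.1 TPM in Rop7-II, Rop7-I and Rop7-III, and Ptgfrn, an immunoglobulin superfamily membrane protein, at 2.09, 3.69 and 11.3 TPM. For Dusp2 the most alike were Sbk1 (0.07), Metap1d (0.07), Ezh2 (0.07), Pex10 (0.08) and Arhgap1 (0.08), with a root mean square of 0.23 for Dusp2. Ezh2, the histone methyltransferase of the Polycomb complex, stood at 35.3 TPM in Rop7-II, 25.9 TPM in Rop7-III and 24.2 TPM in Rop7-I. This is the same order as Dusp2, which the selection again favours.

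The samples carried the transcripts of CD8 T cells, with all 6 markers present and a sum of 5591 to 6255 TPM. By clone this sum was highest in Rop7-II, without overlap (Rop7-II: 5889 to 6255, Rop7-I: 5648 to 5808, Rop7-III: 5591 to 5753). In both pairs that hold Rop7-II, 1 of the 6 markers passed, with Rop7-II the higher clone. For Rop7-III this was Cd8a (log2 difference -0.39, limma adjusted p = 2.05e-04). Dusp2 and Dusp7 were also highest in Rop7-II, and a link to these markers was not tested. In a sample, 11056 to 11494 genes had over 1 TPM. Markers of NK cells summed to at most 1.70 TPM. No scaling tried moved the median of all genes by over 0.05 on the log2 scale.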

How the data were processed

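RNA-seq was from sorted CD8 T cells, 3 replicates of each of 3 clones, grouped by the sample labels. The authors aligned reads to mouse genes with RSEM 1.2.11 on mm10 and deposited TPM values per gene and sample. The authors compared counts with DESeq2 1.8.1, which cannot be applied to TPM. The authors state a typical number of reads per sample. TPM keeps no read number, so the depth of each library is unknown and no counting interval was given. Here genes with a maximum TPM over 1 were kept and log2(TPM + 1) was fitted with limma 3.58.1 in R 4.3.3, with a trend of the spread on level, over all 9 samples. P values were two-sided and Benjamini-Hochberg adjusted over the 12115 genes within each pair, with a limit of 0.01. Intervals are 95% for 1 gene. The fit was tested on simulated data. Members and lists were chosen with earlier results of these data known. All 8 members are named. Of the other lists, genes under the limit in any pair are named, except that 1 list is not reported here. For likeness, 5 genes were taken for each of the 2 members with the smallest F-test p. Same-numbered replicates were not treated as pairs. The alternatives were a pseudocount of 0.1 or 0.5, other filters, a common median, quantile normalization, no trend, array weights, a fit limited to the pair compared, a replicate block, marker covariates, a limit of 0.05 and each library left out. Promoter sequences are from RefSeq, GRCm38.p6.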

Additional observations from a re-analysis of the deposited data

How the results depend on the processing

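The counts of phosphatases that passed between Rop7-III and Rop7-II, between Rop7-I and Rop7-II and across the 3 clones stayed within 1.5 times of 3, 2 and 4 in every alternative run, and no called difference changed sign. The count between Rop7-III and Rop7-I, 2 as reported, was 1 with a pseudocount of 0.1 TPM, with no filter beyond a value above 0, with a TPM of at least 1 required in every sample, with a common median and with no trend. It was 0 with the replicate block, and 0 to 3 with 1 library left out. Dusp4 and Dusp16 fell under the filter of at least 1 TPM in every sample and had no value there. Same-numbered samples of different clones deviated with correlations of -0.39 to 0.11, so that the numbers gave no pairing. With the block Dusp4 had an adjusted p of 0.0148 and Dusp10 of 0.0101 between Rop7-III and Rop7-I. The values are TPM, so that the number of reads behind the low levels of Dusp4, Dusp5, Dusp6 and Dusp16 is unknown. The cause of these changes was not tested.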
